A study of Mus musculus with 32 samples.

Results

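CC chemokine genes, 10 of the 54281 gene identifiers of the count table, were described across 32 RNA-seq libraries of mouse bone marrow-derived macrophages (BMDMs), which are macrophages grown from bone marrow cells in medium conditioned by L929 cells. The members were chosen by name: *Ccl2*, *Ccl7*, *Ccl12*, *Ccl8*, *Ccl3*, *Ccl4*, *Ccl5*, *Ccl6*, *Ccl9* and *Ccl22*, each found through its Ensembl identifier. The study asked how macrophages respond when *Trex1*, the gene of a cytosolic exonuclease that degrades DNA, is lost. All cells carried the tamoxifen-inducible recombinase CreERT2 in the broadly active Rosa26 locus. The genotypes were *Trex1* FL/FL, in which both *Trex1* alleles are flanked by loxP sites, and *Trex1* WT/FL, in which 1 allele is. Cells of each genotype were either exposed to 2 µg/ml 4-hydroxytamoxifen (4-OHT) for 22 h or left untreated, and were harvested on day 1, 2, 3 or 4 after the exposure, which gave 16 groups of 2 libraries. 4-OHT therefore deletes both alleles in FL/FL cells and a single allele in WT/FL cells, so the treated control is heterozygous for the deletion. The age and sex of the animals are not given in the labels.

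Chemokines are small secreted proteins that direct the movement of leukocytes along concentration gradients by binding G protein-coupled receptors. Those of the CC family share a pair of adjacent cysteines, and many bind more than one receptor. Macrophages are a main source of the monocyte chemoattractant proteins and the macrophage inflammatory proteins of this family, many of which are inducible through NF-κB and interferon signalling.

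The totals of the libraries ranged from 35120505 to 63760884 counts with a median of 44841991. *Trex1* was at 0 counts in 6 of the 8 libraries of 4-OHT-treated FL/FL cells and at 14 and 9 counts in the pair of day 2, against 758 to 3622 counts in 4-OHT-treated WT/FL cells. The summed level of 6 macrophage markers was 3800 to 13906 CPM (counts scaled to the library total) over the 32 libraries. T cell, B cell, mast cell and erythroid markers summed to at most 0.198 CPM, fibroblast markers to at most 2.27 CPM, dendritic cell markers to at most 2.12 CPM and neutrophil and granulocyte progenitor markers to 3.19 to 13.8 CPM. Of the 6 macrophage markers, 0, 1, 2 and 1 were higher and 0, 0, 2 and 2 lower in treated FL/FL than in treated WT/FL cells on days 1 to 4. *Fcgr1*, an Fc receptor gene that interferon is known to induce, was higher by 1.52 on the log2 scale on day 2 and by 2.27 on day 4. *Csf1r* and *Itgam* were the lower ones, at -0.36 and -0.34 on day 3 and -0.28 and -0.35 on day 4. The labels name no animal or culture for the paired libraries of a group, so p-values measure the spread between these libraries, which may be technical. The order of the sample titles hints that libraries of different days and treatments within a genotype were linked, and in WT/FL cells the first library of a group was below the second in all 8 groups for *Ccl2*, *Ccl3*, *Ccl4* and *Ccl7*. The labels state no such link, and the tests treat the libraries as independent.

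All members but *Ccl22* lie on chromosome 11 in 2 clusters (GRCm39). The first holds *Ccl2* (chr11:81926397-81928279), *Ccl7* (chr11:81936532-81938351), *Ccl12* (chr11:81992645-81994466) and *Ccl8* (chr11:82006007-82007625), all on the plus strand and together 81.2 kb long. The second starts 1409 kb further on and holds *Ccl5* (chr11:83416602-83425942), *Ccl9* (chr11:83463745-83473161), *Ccl6* (chr11:83478708-83483913) and *Ccl3* (chr11:83538670-83540191) on the minus strand and *Ccl4* (chr11:83553383-83555509) on the plus strand. *Ccl22* lies apart on the plus strand of chromosome 8 (chr8:95471226-95478327). All are protein-coding. *Ccl6* and *Ccl9* overlap the antisense lncRNA *E230016K23Rik*, and the labels do not say whether strand was used, so their reads could hold a part from that gene. *Ccl3* and *Ccl5* likewise overlap the antisense lncRNAs *Gm53692* and *Gm73713*, which were not analysed here.

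The sequences upstream of 5 members from chromosome 11 are shown. On day 2, *Ccl12*, *Ccl8* and *Ccl3* were higher in treated FL/FL than in treated WT/FL cells. *Ccl9* and *Ccl6*, which lie in the same cluster as *Ccl3*, did not pass that test. The sequences are the 100 bases before the annotated start, 5′ to 3′ on the strand of the gene, from RefSeq GRCm38.p6, whose coordinates differ from those of GRCm39 above. Capitals mark matches to a TATA box (TATAAA, on the strand of the gene) or to the NF-κB consensus (on either strand). Promoters were given for 6 of the 10 members, and not for *Ccl2*, *Ccl4*, *Ccl5* and *Ccl7*, which were also higher on day 2.
Ccl12, chr11:82101745-82101844, plus strand: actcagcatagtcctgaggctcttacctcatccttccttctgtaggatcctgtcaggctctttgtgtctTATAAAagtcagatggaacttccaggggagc
Ccl8, chr11:82115085-82115184, plus strand: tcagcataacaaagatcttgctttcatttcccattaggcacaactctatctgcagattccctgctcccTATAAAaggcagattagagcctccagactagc
Ccl3, chr11:83649379-83649478, minus strand: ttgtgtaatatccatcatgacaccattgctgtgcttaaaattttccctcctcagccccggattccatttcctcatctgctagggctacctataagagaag
Ccl9, chr11:83578637-83578736, minus strand: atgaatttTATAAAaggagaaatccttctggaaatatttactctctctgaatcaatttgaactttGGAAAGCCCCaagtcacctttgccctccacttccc
Ccl6, chr11:83593088-83593187, minus strand: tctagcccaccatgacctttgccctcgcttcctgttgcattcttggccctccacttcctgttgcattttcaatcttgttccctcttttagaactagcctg
TATAAA began 31 bases before the start of *Ccl12* and 32 bases before that of *Ccl8*, and 92 bases before that of *Ccl9*. An NF-κB match on the opposite strand began 35 bases before the start of *Ccl9*. The windows were searched from 250 bases before to 50 bases after the start, for TATAAA, NF-κB, the interferon-stimulated response element (GAAA, any 2 bases, GAAA), the GAS element (TTC, any 3 bases, GAA) and AP-1. No further match was found in the 6 windows, and those of *Ccl3*, *Ccl6* and *Ccl22* held none. Of all 32851 promoter windows of this length, 8.32% held TATAAA, 8.46% the NF-κB consensus, 3.44% the interferon element, 8.3% GAS and 5.2% AP-1. These are matches of letters in a short window, and binding was not measured.

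**Figure D1:**
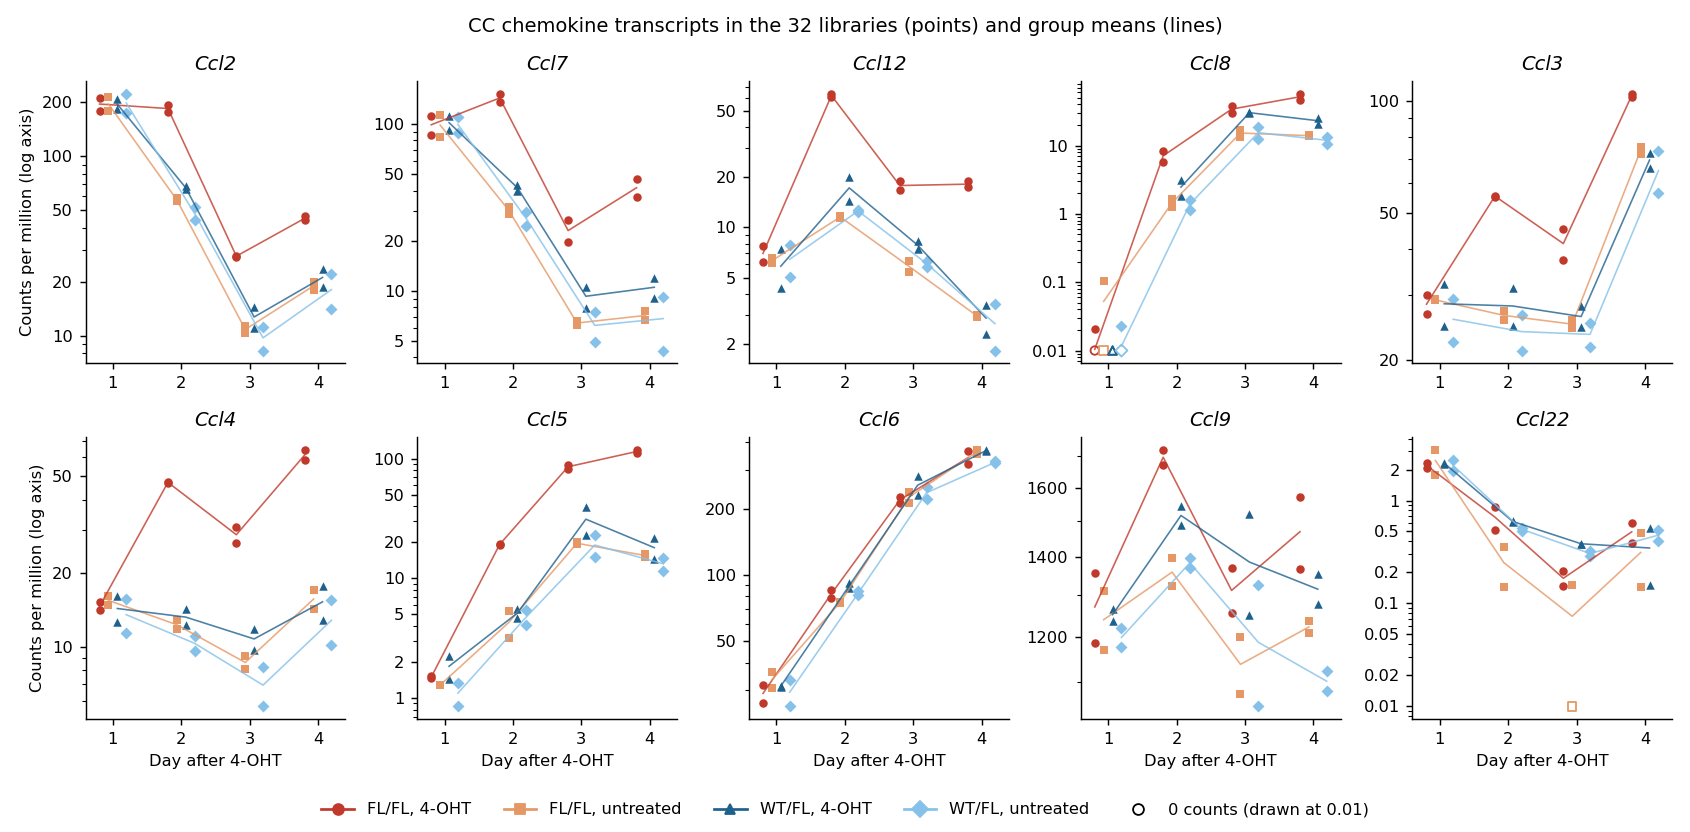
CPM (log axis) of the 10 CC chemokine genes by day after 4-OHT. Each point is a library, lines join group means, colours and shapes mark genotype and treatment, and open points at 0.01 stand for 0 counts. On day 2, both 4-OHT-treated FL/FL libraries of *Ccl2*, *Ccl7*, *Ccl12*, *Ccl8*, *Ccl3*, *Ccl4* and *Ccl5* lie above the other 6 libraries of that day. Those of *Ccl9*, which did not pass the test between the treated genotypes, do so too. The share of all genes with this order was not computed.

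*Ccl9*, a rodent chemokine that binds *Ccr1*, was the most abundant of the 10 transcripts per length in all 16 groups. In untreated WT/FL cells on day 1 its group mean was 385 CPM per kb of exon. *Ccl2* followed with 153 and 196 CPM per kb and *Ccl7* with 109 and 137 CPM per kb. *Ccl3*, *Ccl4*, *Ccl6* and *Ccl12* came next, with group means from 33.2 down to 8.02 CPM per kb, and the libraries of *Ccl4* and *Ccl6* overlapped. *Ccl5* (mean 1.07 CPM per kb) and *Ccl22* (0.896 CPM per kb) overlapped as well, and *Ccl8* was at 1 and 0 counts.

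In 4-OHT-treated FL/FL cells on day 4 the order was different. *Ccl9* (472 CPM per kb), *Ccl6* (187) and *Ccl3* (134) led by group mean, and *Ccl5* (112), *Ccl8* (101) and *Ccl4* (89.2) formed a group in which each overlapped the next. *Ccl7* (51.5), *Ccl2* (39.6) and *Ccl12* (22.7) stood below them, and *Ccl22* was last at 0.203 CPM per kb. In untreated WT/FL cells of the same day, *Ccl8*, *Ccl4*, *Ccl2*, *Ccl5* and *Ccl7* had group means between 23.2 and 8.46 CPM per kb, each overlapping the next.

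The first comparison set FL/FL against WT/FL cells, both treated with 4-OHT, on each day. Genes past the test had a Benjamini-Hochberg adjusted p below 0.01 in edgeR, and genes called also had a log2 fold change above 1.5, which are the thresholds of the study. No member passed on day 1, and on days 2 to 4 the same 6 members (*Ccl2*, *Ccl7*, *Ccl12*, *Ccl3*, *Ccl4* and *Ccl5*) were higher in FL/FL cells, with *Ccl8* as a further one on days 2 and 4. *Ccl6*, *Ccl9* and *Ccl22* did not pass on any day.

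Among the monocyte chemoattractant proteins, *Ccl2* is the main ligand of *Ccr2*, the receptor through which monocytes leave the bone marrow. On day 1 it was at 179 and 212 CPM in 4-OHT-treated FL/FL libraries, within the 174 to 223 CPM of the 6 other libraries of that day. By day 2 it stood at 176 and 193 CPM in FL/FL and at 65.6 and 68.0 CPM in WT/FL cells with 4-OHT. The untreated libraries of day 2 held 43.9 to 58.2 CPM. *Ccl2* thus stood near its day 1 level only in the treated FL/FL libraries, and the groups did not overlap. The log2 difference was 1.47 ± 0.18 (SE, n = 2 libraries per group, adjusted p = 1.4e-05 in edgeR), or 2.76-fold. On days 3 and 4 *Ccl2* was below its day 1 level in all libraries, and the difference between the treated genotypes was still 1.13 ± 0.20 and 1.10 ± 0.19 on the log2 scale. On day 4 it stood at 44.0 and 46.2 CPM in FL/FL and 18.7 and 23.6 CPM in WT/FL cells.

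*Ccl7*, which also attracts monocytes through *Ccr2*, was at 86.2 and 112 CPM on day 1 in treated FL/FL cells and at 92.4 and 112 CPM in treated WT/FL cells. A day later it stood at 135 and 152 CPM in FL/FL and at 39.9 and 43.2 CPM in WT/FL cells. The 4 untreated libraries of that day held 24.5 to 32.1 CPM, so the treated FL/FL libraries were the highest. The log2 difference was 1.79 ± 0.26 (adjusted p = 8.5e-05 in edgeR) on day 2, 1.33 ± 0.28 on day 3 and 1.99 ± 0.28 (adjusted p = 2.7e-05) on day 4, when the fold was 3.97. On day 4 the values were 36.5 and 46.6 CPM in FL/FL and 9.13 and 11.9 CPM in WT/FL cells.

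*Ccl12*, a further mouse ligand of *Ccr2*, was at 6.23 and 7.74 CPM in treated FL/FL cells on day 1, and at 4.32 to 7.83 CPM in the other libraries. The treated libraries of day 2 held 60.5 and 63.4 CPM in FL/FL, against 20.2 and 14.4 CPM in treated WT/FL and 11.4 to 12.8 CPM in untreated libraries. The treated WT/FL pair was the next highest, and no group with 4-OHT overlapped an untreated one on that day. On day 4 *Ccl12* was at 17.4 and 18.9 CPM in treated FL/FL cells and at 1.83 to 3.46 CPM in the other 6 libraries. The log2 difference between the treated genotypes was 1.84 ± 0.24 on day 2 (adjusted p = 1.5e-05 in edgeR), 1.19 ± 0.25 on day 3 and 2.68 ± 0.27 on day 4 (adjusted p = 1.8e-07). The day 4 value, a fold of 6.42, was close to that of *Ccl5* on the same day (6.38).

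*Ccl8*, a mouse ligand of *Ccr8*, was nearly absent on day 1, with 0, 0, 0, 0, 0, 1, 1 and 6 counts in the 8 libraries, so no fold is given for that day. *Ccl8* reached 5.74 and 8.44 CPM in treated FL/FL, 3.11 and 1.82 CPM in treated WT/FL and 1.16 to 1.65 CPM in untreated libraries on day 2. On day 3 the treated genotypes met, at 30.1 and 38.3 CPM in FL/FL and 30.1 and 30.6 CPM in WT/FL cells, whereas untreated libraries held 12.4 to 18.6 CPM. On day 4 they stood apart again, at 46.6 and 57.2 CPM against 20.6 and 25.6 CPM. Both treated genotypes were thus above all untreated libraries from day 2 on. The log2 difference between the treated genotypes was 1.53 ± 0.31 on day 2 (adjusted p = 0.0023 in edgeR), 0.18 ± 0.26 on day 3 (adjusted p = 0.72) and 1.17 ± 0.26 on day 4 (adjusted p = 0.0021). On each of days 2 and 4, leaving out 1 of 2 libraries ended the pass: the second of either group on day 2, and the first WT/FL or the second FL/FL library on day 4, with adjusted p from 0.027 to 0.058.

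*Ccl3* and *Ccl4* encode macrophage inflammatory proteins that attract leukocytes, and *Ccl3* binds *Ccr1*. On day 1 *Ccl4* was at 14.1 and 15.2 CPM in treated FL/FL cells, within the 11.4 to 16.1 CPM of the 6 other libraries. On day 2 treated FL/FL cells held 47.1 and 47.5 CPM, and treated WT/FL cells 12.2 and 14.2 CPM. The day 4 values were 64.4 and 58.2 CPM in treated FL/FL and 12.9 and 17.7 CPM in treated WT/FL cells. Outside the treated FL/FL groups no library exceeded 17.7 CPM on any day. Between the treated genotypes *Ccl4* differed by 1.84 ± 0.20 (day 2), 1.42 ± 0.21 (day 3) and 2.01 ± 0.20 (day 4) on the log2 scale (adjusted p = 1.9e-06, 4.3e-05 and 1.6e-07 in edgeR). *Ccl4* passed the test in all 12 fits that left out 1 treated library of days 2, 3 or 4, the only member on day 3 of which this held.

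*Ccl3* differed less. Its day 2 level was 55.6 and 55.3 CPM in treated FL/FL and 24.8 and 31.3 CPM in treated WT/FL cells. On day 4 the values were 103 and 105 CPM against 66.1 and 72.7 CPM, and the 4 untreated libraries held 56.7 to 75.3 CPM. The treated FL/FL pair was the highest on both days, in a transcript whose level on day 4 was high in all arms. The log2 difference was 0.98 ± 0.15 on day 2 (adjusted p = 0.00013 in edgeR), 0.65 ± 0.16 on day 3 and 0.58 ± 0.15 on day 4 (adjusted p = 0.0054). On day 4 the pass was lost whichever of the 4 treated libraries was left out.

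*Ccl5*, a ligand of *Ccr1* and *Ccr3* known to be induced by interferon and NF-κB, was nearly off on day 1, at 1.52 and 1.47 CPM in treated FL/FL cells and 0.851 to 2.24 CPM elsewhere. Levels of 19.1 and 19.3 CPM in treated FL/FL cells on day 2 stood against 5.58 and 4.69 CPM in treated WT/FL cells. On day 3 it reached 82.7 and 88.4 CPM against 23.0 and 39.4 CPM. On day 4 the values were 119 and 110.5 CPM against 14.4 and 21.6 CPM, and the untreated libraries held 11.6 to 16.0 CPM. *Ccl5* was thus highest in treated FL/FL cells from day 2 on, and the WT/FL pair of day 3 lay far apart from each other. The log2 difference was 1.91 ± 0.29 on day 2 (adjusted p = 0.00016 in edgeR), 1.46 ± 0.26 on day 3 (adjusted p = 0.00059, and 0.13 with only the libraries of the compared groups) and 2.67 ± 0.27 on day 4 (adjusted p = 5.4e-07), or 6.38-fold.

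*Ccl6* and *Ccl9* are rodent chemokines that myeloid cells make without stimulation. On day 2 *Ccl6* was at 85.6 and 78.9 CPM in treated FL/FL and 86.9 and 91.7 CPM in treated WT/FL cells. On day 4 the values were 364 and 318 CPM against 365 and 368 CPM. Its log2 difference lay between -0.22 ± 0.11 (day 3) and -0.10 ± 0.11 (day 4), and on days 2 to 4 the treated FL/FL pair lay below the treated WT/FL pair by a margin that did not pass the test. *Ccl9* was at 1722 and 1672 CPM in treated FL/FL and 1545 and 1488 CPM in treated WT/FL cells on day 2. Its log2 difference on that day was 0.16 ± 0.10 (adjusted p = 0.36 in edgeR), and it was 0.16 ± 0.10 again on day 4. On days 2 and 4 both treated FL/FL libraries of *Ccl9* were above the other 6, by a margin that did not pass the test.

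*Ccl22*, a ligand of *Ccr4* that dendritic cells and macrophages make, held at most 188 counts in a library. It was at 2.31 and 2.08 CPM in treated FL/FL cells on day 1 and at 1.78 to 3.12 CPM in the other libraries. By day 3 it was at 0.146 and 0.205 CPM in treated FL/FL and 0.381 and 0.380 CPM in treated WT/FL cells, with 0 to 0.320 CPM in untreated cells. The log2 difference of -1.07 ± 0.64 on that day had an adjusted p of 0.28 in edgeR. No difference of *Ccl22* between the treated genotypes passed the test on any day, and its low counts after day 1 limit what could be detected.

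**Figure D2:**
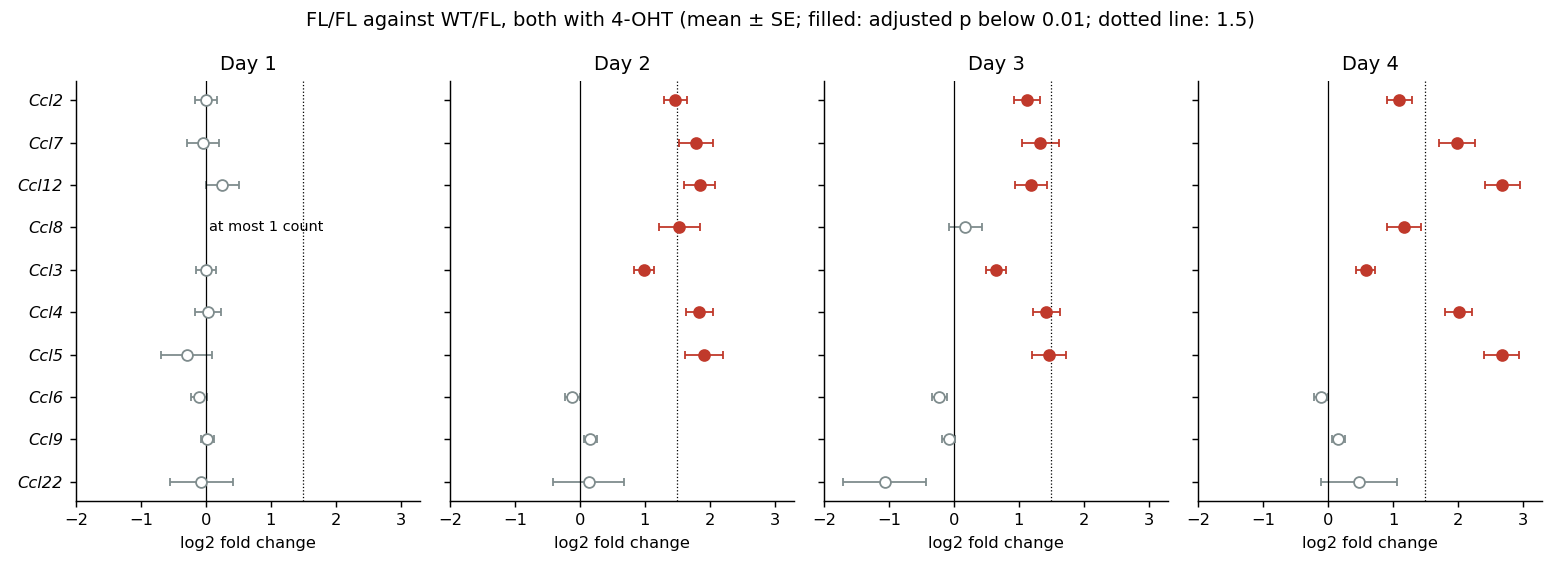
Log2 fold change (point) with its standard error (bar) of FL/FL against WT/FL cells, both with 4-OHT, for each member on days 1 to 4. Filled points passed an adjusted p of 0.01, and the dotted line marks a log2 fold change of 1.5. The 9 values of day 1 lie between -0.29 and 0.25, and *Ccl8* is left out there because no library of the compared groups had more than 1 count.

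Counted over the 10 members, 0 passed on day 1 (edgeR; 0 at an unadjusted p under 0.05 and 0 in DESeq2), where 0.00655% of the 15257 genes tested were higher and the same share was called higher. On day 2, 7 passed, all higher, against 5.69% of all genes, and 5 (*Ccl4*, *Ccl5*, *Ccl7*, *Ccl8* and *Ccl12*) were called, against 0.498%. On day 3, 6 passed against 6.69% and 0 were called (edgeR; 6 at an unadjusted p under 0.05 and 6 past the test in DESeq2) against 0.485%. On day 4, 7 passed against 9.84%, and 4 (*Ccl4*, *Ccl5*, *Ccl7* and *Ccl12*) were called against 1.65%. The median log2 difference of the 10 members was -0.00046, 1.499, 0.89 and 1.13 on days 1 to 4, whereas that of all genes was between -0.04 and -0.01. The count of day 3 rests on the first WT/FL library: without it 1 member passed (*Ccl4*). On that day *Ccl12* also lost its pass without the second library of either treated group, *Ccl3* without the second WT/FL or the first FL/FL library, and *Ccl7* without the second FL/FL library. Summed without the abundant *Ccl9*, the members held 586 and 619 CPM in treated FL/FL and 259 and 269.9 CPM in treated WT/FL cells on day 2. In bulk RNA, fewer cells that make a chemokine and less RNA per cell cannot be told apart.

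Whether the difference was there before deletion was asked with untreated cells. In untreated cells 0 members passed between FL/FL and WT/FL on any day (edgeR; DESeq2 also 0, with no adjusted p for 5 members on day 4). At an unadjusted p under 0.05 the members were 0, 0, 1 (*Ccl22*, day 3) and 0 on days 1 to 4. Over all genes, 0%, 0%, 0% and 0.0655% passed on these days.

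4-OHT-treated and untreated cells were then compared in WT/FL cells, which keep a wild-type allele. *Trex1* fell in this comparison too, by 0.80 to 1.16 on the log2 scale, so an effect of the drug and of the loss of 1 allele cannot be told apart. In these cells 0 members passed between treated and untreated on days 1 to 4 (edgeR), against 0.00655%, 0.0918%, 0.341% and 0.216% of all genes. At an unadjusted p under 0.05 they were 0, 3, 4 and 3, and DESeq2 passed 0, 0, 1 (*Ccl8*) and 0. The values were nevertheless positive for 10, 10 and 9 of the 10 members on days 2, 3 and 4, so this was not particular to the 7 members above. The median log2 value of the members was 0.31, 0.38 and 0.25, and that of all genes 0.0040, 0 and 0.0069. The share of all genes with a positive value was not computed. *Ccl9*, which did not pass between the treated genotypes, was at 0.13 ± 0.10, 0.22 ± 0.10 and 0.26 ± 0.10 on the log2 scale. *Ccl8* had the largest, at 0.80 ± 0.36, 0.97 ± 0.26 and 0.96 ± 0.27 on the log2 scale (adjusted p = 1, 0.16 and 0.20 in edgeR), and *Ccl7* was at 0.62 ± 0.26, 0.58 ± 0.32 and 0.67 ± 0.31. Without the filter on low counts the numbers past the test were 1, 3, 5 and 3, so the number past the test in WT/FL cells depends on that filter. The share of all genes past the test without the filter was not computed.

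In FL/FL cells, 4-OHT raised 0, 7, 7 and 6 members on days 1 to 4 (edgeR, day 1 with 0 at an unadjusted p under 0.05 and 0 in DESeq2), against 0%, 7.49%, 8.12% and 10.2% of all genes. These comparisons share the treated FL/FL libraries with the one between genotypes. The log2 increase on day 4 was largest for *Ccl5* (2.89 ± 0.28), *Ccl12* (2.63 ± 0.27) and *Ccl7* (2.55 ± 0.30), then *Ccl4* (1.97 ± 0.20), *Ccl8* (1.89 ± 0.27) and *Ccl2* (1.25 ± 0.19). Against this control *Ccl8* also passed on day 3, at 1.17 ± 0.27 (adjusted p = 0.0033 in edgeR), and *Ccl3* did not on day 4, at 0.49 ± 0.15 (adjusted p = 0.017). *Ccl9* was at 0.32 ± 0.10 on day 2 (adjusted p = 0.027 in edgeR). DESeq2 passed 8, 7 and 7 members on days 2, 3 and 4, with *Ccl9* as the further one on day 2 and *Ccl3* on day 4.

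**Figure D3:**
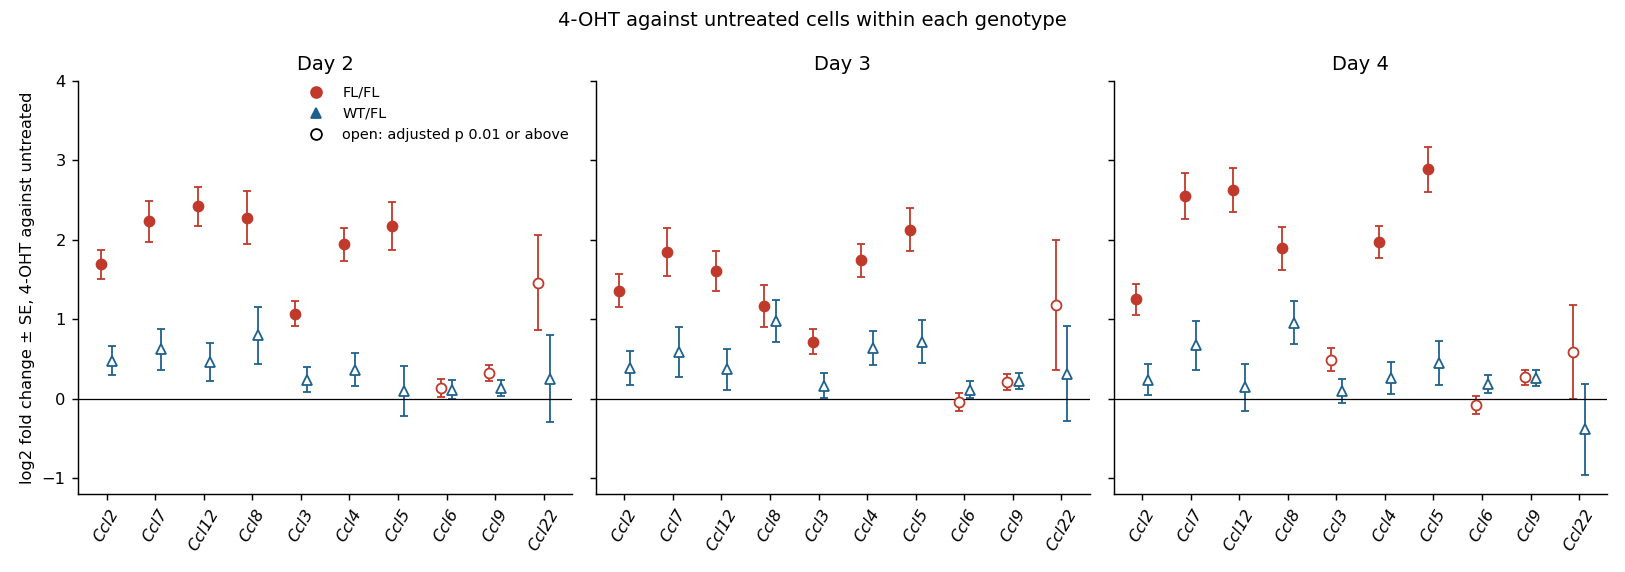
Log2 fold change with its standard error of 4-OHT-treated against untreated cells for each member, in FL/FL (circles) and WT/FL cells (triangles), on days 2, 3 and 4. Filled symbols passed an adjusted p of 0.01. All filled symbols are from FL/FL cells, and the WT/FL values of *Ccl8* reach 0.97.

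Whether the effect of 4-OHT differed between the genotypes was tested by their interaction. It passed for 0, 5, 0 and 4 members on days 1 to 4, against 0.00655%, 4.04%, 4.65% and 10.4% of all genes. The members were *Ccl2*, *Ccl4*, *Ccl5*, *Ccl7* and *Ccl12* on day 2, and *Ccl4*, *Ccl5*, *Ccl7* and *Ccl12* on day 4. On day 4 the effect in FL/FL exceeded that in WT/FL cells by 2.49 ± 0.40 for *Ccl12*, 2.44 ± 0.38 for *Ccl5*, 1.88 ± 0.43 for *Ccl7* and 1.71 ± 0.29 for *Ccl4* on the log2 scale. On day 1, 0 members had an unadjusted p under 0.05 and DESeq2 passed 0, and on day 3 these numbers were 6 and 4. For *Ccl8* the interaction was 1.48 ± 0.50, 0.19 ± 0.37 and 0.94 ± 0.37 on days 2, 3 and 4 (adjusted p = 0.10, 0.84 and 0.11 in edgeR). The 5 members of day 2 became 1 to 3 when any of the 8 libraries was left out.

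Most members changed with time in every arm. All 6 macrophage markers also rose from day 1 to day 4 in each arm, with median log2 changes of 1.78 to 2.09, and 1 or 2 of 4 tested neutrophil and granulocyte progenitor markers fell, with medians of -0.96 to -3.35. Their part in the changes of the members was not tested. *Ccl2*, *Ccl7* and *Ccl22* fell from day 1 to day 4 in all 4 arms, and *Ccl3*, *Ccl5*, *Ccl6* and *Ccl8* rose in all 4. *Ccl2* fell from 174 to 223 CPM on day 1 to 14.1 to 23.6 CPM on day 4 outside the treated FL/FL arm, with log2 changes of -3.21 to -3.48, and by 2.12 ± 0.19 on the log2 scale within it. *Ccl6* rose by 3.43 to 3.55 on the log2 scale in each arm, from 25.3 to 36.3 CPM to 318 to 369.7 CPM. *Ccl8*, at or near 0 counts on day 1, rose to 10.4 to 57.2 CPM by day 4. Against a floor of 3 counts per library on day 1, this was at least 844-fold in treated FL/FL, 467-fold in treated WT/FL and 168-fold in untreated WT/FL cells. In untreated FL/FL cells, with 0 and 6 counts on day 1, the fitted rise was 8.02 ± 0.52 on the log2 scale.

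Between day 1 and day 4, *Ccl12* and *Ccl4* changed otherwise in treated FL/FL cells than in the other arms. *Ccl12* was highest on day 2 in every arm. Its group means of that day were 61.9 CPM in treated FL/FL, 17.3 in treated WT/FL, 11.6 in untreated FL/FL and 12.6 in untreated WT/FL cells. In treated FL/FL cells the mean was 17.9 CPM on day 3 and 18.2 CPM on day 4. From day 1 to day 4 *Ccl12* rose by 1.38 ± 0.25 on the log2 scale in treated FL/FL cells. It fell by 1.05 ± 0.27, 1.10 ± 0.27 and 1.32 ± 0.29 in treated WT/FL, untreated FL/FL and untreated WT/FL cells. *Ccl4* rose by 2.07 ± 0.20 in treated FL/FL cells, and its changes of -0.09 to 0.09 in the other arms did not pass the test. *Ccl5* rose by 6.26 ± 0.35 in treated FL/FL cells and by 3.29 to 3.59 in the others. *Ccl9* did not pass in any arm. In treated FL/FL cells 6 members rose and 3 fell, against 28.3% and 27.7% of all genes. The numbers were 4 and 4 in untreated FL/FL (27.7% and 26.7% of all genes), treated WT/FL (27.7% and 26.7%) and untreated WT/FL cells (27.5% and 26.3%).

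**Figure D4:**
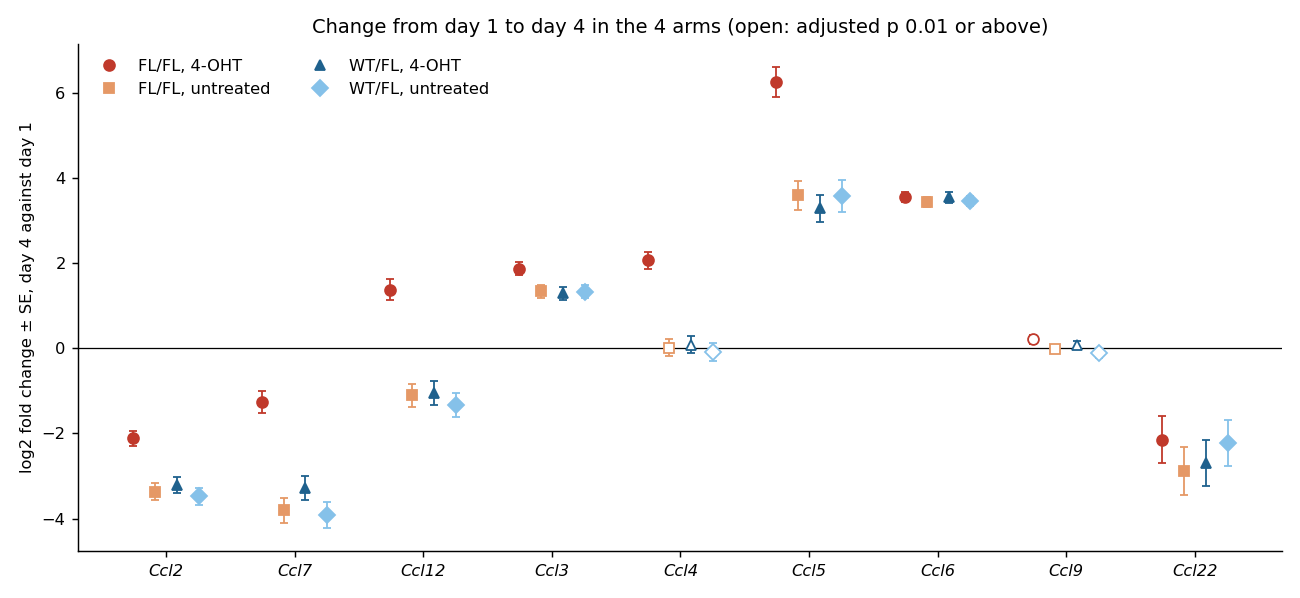
Log2 fold change with its standard error of day 4 against day 1 in the 4 arms, for the 9 members other than *Ccl8*, which was at or near 0 counts on day 1. Filled symbols passed an adjusted p of 0.01. *Ccl12* is above 0 in 4-OHT-treated FL/FL cells (1.38) and below 0 in the other arms (-1.05 to -1.32).

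The change of the difference between the treated genotypes was then tested from day to day. From day 1 to day 2 it grew for 5 members (*Ccl2*, *Ccl3*, *Ccl4*, *Ccl7* and *Ccl12*; 3.02% of all genes passed in either direction), by 1.83 ± 0.35 for *Ccl7*, 1.81 ± 0.29 for *Ccl4* and 1.59 ± 0.35 for *Ccl12* on the log2 scale. For *Ccl5* it was 2.20 ± 0.49 (adjusted p = 0.011 in edgeR), just outside the threshold. This count was 1 to 3 without any one of the treated libraries of days 1 and 2 other than the first WT/FL library of day 1, without which it was 5. From day 2 to day 3 no member passed (edgeR; 1 at an unadjusted p under 0.05 and 1 in DESeq2, *Ccl8* in both, against 0.905% of all genes). The lower differences of day 3 were therefore not shown to differ from those of day 2. From day 3 to day 4 no member passed either (edgeR; 3 at an unadjusted p under 0.05 and 1 in DESeq2, *Ccl12*, against 3.7% of all genes). From day 1 to day 4 it grew for *Ccl5* (2.97 ± 0.47), *Ccl12* (2.43 ± 0.37), *Ccl7* (2.03 ± 0.37), *Ccl4* (1.98 ± 0.28) and *Ccl2* (1.10 ± 0.26), which are 5 members against 10.6% of all genes, in a contrast that was added after the values were seen.

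By position, the 4 genes of the first cluster all passed on day 2 and on day 4 (3 of 4 on day 3). In the second cluster 3 of 5 passed on days 2, 3 and 4: *Ccl5* at one end and *Ccl3* and *Ccl4* at the other. Of all genes tested, 5.69%, 6.69% and 9.84% were higher on these days. As given above, the passes of *Ccl8*, of *Ccl3* on day 4 and of all but *Ccl4* on day 3 depended on single libraries. *Ccl9* and *Ccl6*, which lie between them, had log2 differences of 0.16 and -0.12 on day 2. *Ccl9* starts 37.8 kb from the end of *Ccl5*, and *Ccl3* lies 54.8 kb beyond *Ccl6*.

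**Figure D5:**
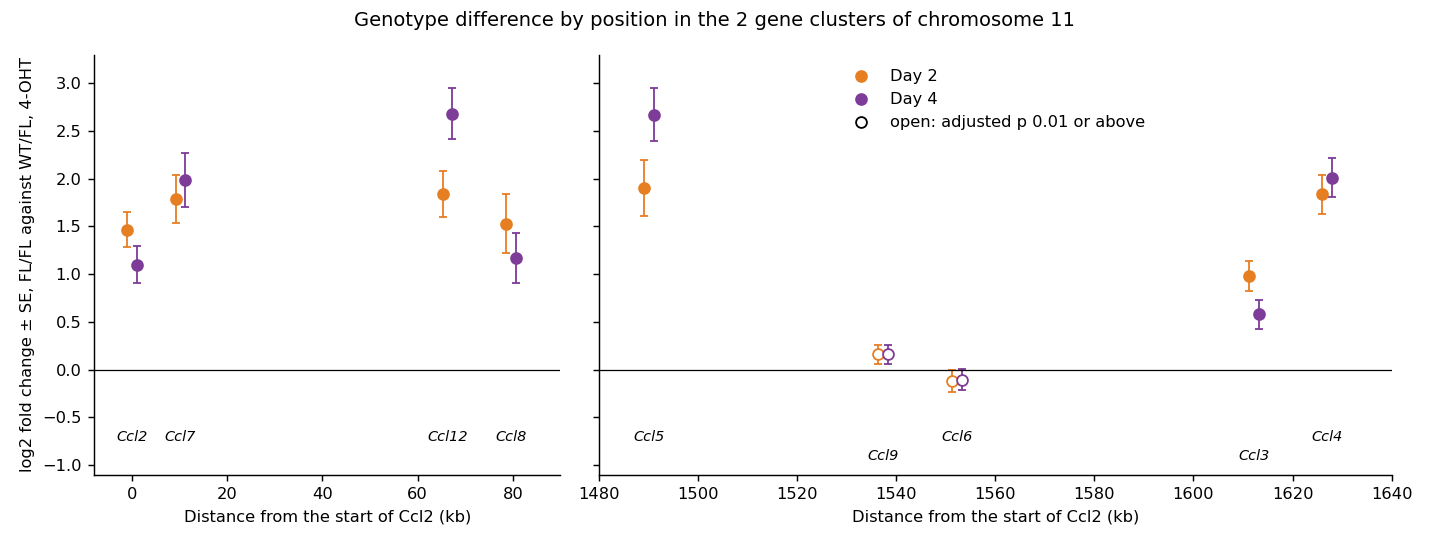
Log2 fold change with its standard error of FL/FL against WT/FL cells with 4-OHT on day 2 and day 4, by the distance of each gene from the start of *Ccl2* on chromosome 11 (kb), with the first cluster in the left panel and the second in the right. Filled points passed an adjusted p of 0.01. *Ccl9* and *Ccl6* lie at 1537 and 1552 kb between *Ccl5* and *Ccl3*, with values near 0.

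Of 12 other CC chemokine genes, 3 had enough counts to be tested (*Ccl24*, *Ccl25* and *Ccl27a*), and 0 of these passed the test between the treated genotypes on any day in edgeR. No library held more than 1 count of *Ccl17*, which like *Ccl22* encodes a ligand of *Ccr4*. Of 15 genes of CC chemokine receptors and decoy receptors, 7 were tested, and 0, 2, 3 and 4 were higher in treated FL/FL than in treated WT/FL cells on days 1 to 4, with none lower.

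*Ccr2*, the receptor of *Ccl2*, *Ccl7* and *Ccl12*, passed on day 4 only, at 1.44 ± 0.30 (adjusted p = 0.0013 in edgeR). Its level fell from day 1 to day 4 in the other 3 arms, by 1.41 to 1.68 on the log2 scale, and its change in treated FL/FL cells was -0.02 ± 0.29. *Ccr1*, a receptor of *Ccl3*, *Ccl5*, *Ccl6* and *Ccl9*, did not pass between the treated genotypes on any day, with log2 differences of 0.03 to 0.13. It fell by 3.78 to 4.41 on the log2 scale from day 1 to day 4 in all arms, the opposite direction to *Ccl6*. The receptor-like gene *Ccr1l1* was called on day 4 (2.29 ± 0.59, adjusted p = 0.0037 in edgeR) at 42 to 70 counts in FL/FL and 12 to 23 counts in WT/FL libraries.

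Beside the members, 12 interferon-inducible genes were counted, of which 0, 12, 12 and 12 were higher in treated FL/FL than in treated WT/FL cells on days 1 to 4. Their median log2 difference was 0.47, 1.76, 1.33 and 2.89. *Cxcl10*, a chemokine of the CXC family induced by interferon, had the largest on day 4, at 3.65 ± 0.28. Of 12 NF-κB-inducible genes, 0, 0, 1 and 3 were higher and 0, 0, 1 and 1 were lower, with medians between -0.22 and 0.00. Of all genes tested, 0.0131%, 2.48%, 5.42% and 11.7% were lower on these days, so 1 lower of 12 is near the share of all genes on days 3 and 4. The 10 members had medians between those of both lists on days 2, 3 and 4.

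Over the 16 group means of log2 CPM, which share libraries, days and culture, the members fell into patterns that did not follow the genotype alone. *Ccl2* and *Ccl7* were most alike (Pearson r = 0.98), and *Ccl8* was close to *Ccl6* (0.95) and *Ccl5* (0.94). *Ccl2* ran against *Ccl6* (-0.88) and *Ccl8* (-0.82), which belongs to the same cluster on the chromosome. Of all tested genes, the ones nearest to each member were *Flrt2* and *Azin1* for *Ccl2* (r = 0.99 and 0.99) and *Ppp1r2* and *Spred1* for *Ccl7* (0.98 and 0.98). They were *Cd69* and *Aida* for *Ccl12* (0.98 and 0.98) and *Tlr9* and *Grina* for *Ccl8* (0.997 and 0.996). They were *Por* and *Ccr3* for *Ccl3* (0.97 and 0.96), *Pmm2* and *Cd180* for *Ccl4* (0.95 and 0.94) and *Arhgap25* and *Trim25* for *Ccl5* (0.995 and 0.992). They were *mt-Rnr1* and *Zfp36l1* for *Ccl6* (0.995 and 0.995), *Pxk* and *Ascc3* for *Ccl9* (0.89 and 0.88) and *Fra10ac1* and *Adgrg3* for *Ccl22* (0.97 and 0.95). With 15257 genes and 16 points, high values of r for some genes are common, and they are given as a description. *Ccl8* was at or near 0 counts in the groups of day 1, where its log2 CPM is set mostly by the prior count. How far its r rests on these groups was not tested.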

How the data were processed

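RNA of 32 libraries was measured. The authors quantified transcripts with Salmon and summed them per gene, so the values they deposited are estimated counts for each gene (GRCm39). They are whole numbers without normalization. Strand use is not given in the sources used here. Of 54281 identifiers, 51048 matched GENCODE vM39 without their version, while those without a match made up 0.32% of all counts. The quasi-likelihood test of edgeR 4.0.16 (R 4.3.3) was used with TMM factors, robust estimation, 16 group means and 16 residual degrees of freedom. The edgeR filter with a minimum count of 10 kept 15257 genes, all 10 members included, with a common biological coefficient of variation of 0.0912. P-values were adjusted over all genes tested. DESeq2 1.42.0 was an alternative, beside other scaling factors, filters, thresholds, the libraries of the compared groups only, another control and leaving out each library. CPM use TMM-scaled totals, correlations log2 CPM with a prior count of 2, and CPM per kb the exon length of the annotation. A fold against libraries of at most 3 counts was computed at 3 counts per library, which covers counting error only.

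All 10 members were named, with *Trex1*, the receptors *Ccr1* and *Ccr2*, genes of fixed lists past both thresholds (given as counts for the interferon list, of which *Cxcl10* alone was picked after its values were seen), the untested *Ccl17*, which was also picked then, the macrophage markers *Csf1r* and *Itgam*, likewise picked then, and for each member the 2 genes with the highest Pearson r. A gene that this rule also names is not reported here. The members and lists were chosen with earlier results of these data known. Of the words of 31 bases in the members' transcripts, 5.37% in *Ccl9* and at most 0.923% in the others also occur in transcripts of other genes. Libraries of a group differed by more than sampling noise and were counted separately. In data simulated for the comparison of day 2 with 14799 genes, 82 of 100 genes with a log2 change of 1 and 98 of 100 with 2.5 passed the test.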

Additional observations from a re-analysis of the deposited data

Results flagged for a closer look

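For 4 members an effect differed between groups by a test of that difference in edgeR. The effect of 4-OHT was larger in FL/FL than in WT/FL cells on day 2 by 1.96 ± 0.34 on the log2 scale for *Ccl12* (adjusted p = 0.00071), 2.08 ± 0.43 for *Ccl5* (0.0051), 1.61 ± 0.36 for *Ccl7* (0.00999) and 1.58 ± 0.29 for *Ccl4* (0.0012). On day 4 it was larger by 2.49 ± 0.40 for *Ccl12* (0.00016), 2.44 ± 0.38 for *Ccl5* (0.00017), 1.88 ± 0.43 for *Ccl7* (0.0051) and 1.71 ± 0.29 for *Ccl4* (0.00021).

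The difference between the treated genotypes was larger on day 2 than on day 1 by 1.83 ± 0.35 for *Ccl7* (adjusted p = 0.0038 in edgeR), 1.81 ± 0.29 for *Ccl4* (0.00042) and 1.59 ± 0.35 for *Ccl12* (0.0076). In the contrast added after the values were seen, it was larger on day 4 than on day 1 by 2.97 ± 0.47 for *Ccl5* (0.0002), 2.43 ± 0.37 for *Ccl12* (7.4e-05), 2.03 ± 0.37 for *Ccl7* (0.00078) and 1.98 ± 0.28 for *Ccl4* (3.7e-05). Tests that involve the same day share the treated libraries of that day.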

How the results depend on the processing

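Of the alternative counts of members past the test, 328 were within 1.5 times the reported count, 17 were above it and 23 below. Among the 328 are settings in which both counts were 0, which do not show that a pass holds. With the fold threshold added, the counts became 0 (genotype after 4-OHT, day 3), 4 (genotype after 4-OHT, day 4), 4 (4-OHT in FL/FL, day 3) and 3 (change of the genotype difference, day 1 to day 2). Without the filter on low counts, 4-OHT in WT/FL cells gave 1, 3, 5 and 3 members on days 1 to 4, the interaction of day 3 gave 6, and the change of the genotype difference gave 1 from day 2 to day 3 and 5 from day 3 to day 4. DESeq2 gave 1 for 4-OHT in WT/FL cells on day 3, 1 for each of these later changes, and 4 for the interaction of day 3. At an adjusted p of 0.05 the interaction of day 3 gave 3 and the change from day 3 to day 4 gave 1. With the libraries of the compared groups only, the interaction gave 1 on day 3 and 2 on day 4, the changes gave 3 from day 1 to day 2 and 1 from day 3 to day 4, and day 4 against day 1 in untreated WT/FL cells gave 5. The causes were not tested, and the share of all genes past the test without the filter was not computed. Leaving out 1 library gave 1 to 5 members for the genotype after 4-OHT on day 3, 1 to 5 for the change from day 1 to day 2, 0 to 1 from day 3 to day 4, and 1 to 3 (day 2) and 0 to 1 (day 3) for the interaction. No log2 difference between the treated genotypes that passed the test changed sign. Among those that did not pass, the following did on day 1: *Ccl2* (-0.0041 without the filter, -0.00091 with untreated FL/FL cells as the control, -0.13 to 0.12 without 1 library), *Ccl3* (0.0080 with upper-quartile factors, 0.0056 with a minimum count of 50, 0.0062 with the compared groups only, -0.18 to 0.19 without 1 library), *Ccl4* (-0.081 with the untreated control, -0.17 with the difference of untreated cells subtracted, -0.14 to 0.22 without 1 library), *Ccl5* (0.22 with the untreated control, -0.58 to 0.049 without 1 library), *Ccl7* (0.0066 with the untreated control, -0.24 to 0.13 without 1 library) and *Ccl9* (-0.028 with the difference of untreated cells subtracted, -0.079 to 0.11 without 1 library). Without 1 library, *Ccl6* (-0.25 to 0.015), *Ccl12* (-0.081 to 0.69) and *Ccl22* (-0.15 to 0.0078) crossed 0 on day 1 as well. On later days the sign changed for *Ccl6* on day 2 (0.13 with the untreated control, 0.014 with the difference of untreated cells subtracted), *Ccl9* on day 3 (0.21 with the untreated control, -0.21 to 0.070 without 1 library), *Ccl22* on day 3 (1.18 with the untreated control, 0.87 with the difference of untreated cells subtracted) and, without 1 library, *Ccl22* on day 2 (-0.27 to 0.46) and day 4 (-0.13 to 1.69) and *Ccl8* on day 3 (-0.010 to 0.34). No paired analysis was possible because the labels give the libraries no replicate numbers, and a pairing read from the order of their titles was not used. With 2 libraries per group, the low counts of *Ccl22* on days 2 to 4 and of *Ccl8* on day 1 limit what could be detected.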
